A study of Mus musculus with 18 samples.

Results

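Expression was compared between KIKO oil and WT oil libraries of the mouse arcuate nucleus, a pair of genotypes given the vehicle without added hormone. Both groups were females of the strain labelled C57/BL that had been ovariectomized, injected with oil on days 5 and 6 after surgery and killed 24 h later, following a 1 h fast. KIKO oil and WT oil held 3 libraries each, 6 of the 18 in the series. The other groups used here were ERKO oil, and KIKO E2, ERKO E2 and WT E2, whose females received estradiol benzoate instead, 250 ng at the first injection and 1500 ng at the second (3 libraries each). WT animals carry intact estrogen receptor alpha (ERα, gene Esr1). In the usual meaning of the names, ERKO animals lack ERα, and KIKO animals carry 1 ERα allele with a changed DNA-binding domain that cannot bind estrogen response elements and 1 null allele. The labels say neither how the alleles were made nor whether a library came from 1 animal or a pool, so the p-values measure only the spread between these libraries, which may be technical. The labels name no promoter or Cre line that would limit the change to some cells or ages, and ovariectomy took away ovarian estradiol in all groups.

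ERα is a ligand-activated transcription factor. In its classical mode it binds estrogen response elements in DNA. In other modes it is tethered to factors such as AP-1 and Sp1 or acts from the membrane, and the KIKO allele was designed to keep these while losing the classical mode. Arcuate neurons that express ERα include kisspeptin neurons, which govern gonadotropin secretion and also make neurokinin B and dynorphin, and part of the POMC neurons, which restrain feeding, and of the dopamine neurons, which restrain prolactin.

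All values are FPKM, fragment numbers scaled by transcript length and library depth, and the test took in the 14774 genes that averaged 0.5 FPKM or more over the 18 libraries. Relative depth, worked out from the deposited confidence bounds, was 0.817, 1.50 and 1.07 in KIKO oil 1, 2 and 3, against 0.778, 0.954 and 0.924 in WT oil 1, 2 and 3. The number of symbols listed at 0 was 5308 to 6311 in KIKO oil and 6149 to 6814 in WT oil. The library ERKO E2 3 stood apart, with correlations of 0.919 to 0.954 to the others. Its group is outside the comparison, but it enters the shared estimate of spread, so the fit was also made without it. The arcuate markers Pomc, Agrp, Npy and Kiss1 were present in all 6 libraries. Summed markers of the suprachiasmatic, paraventricular and supraoptic nuclei, mostly Avp and Oxt, came to 2902, 3417 and 4684 FPKM in KIKO oil and 7551, 7139 and 4749 FPKM in WT oil, so the dissections held neighbouring nuclei too. In bulk tissue, fewer cells of a type and less RNA per cell cannot be told apart.

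Timp1 and Lhfpl1 were the 2 genes that fell in KIKO oil relative to WT oil, and none rose. This was 0.0135% of the 14774 genes at an adjusted p below 0.05 (limma, Benjamini-Hochberg), while 1485 genes had an unadjusted p below 0.05. Without ERKO E2 3 in the fit 268 genes passed (1.81%), 179 higher (1.21%) and 89 lower (0.602%) in KIKO oil. Leaving it out keeps the differences between KIKO oil and WT oil as they are and changes the estimate of spread. A pass in that fit is therefore not a separate test, here and below, and genes chosen for a small p are favoured in it. The 3 KIKO oil libraries all lay above the 3 WT oil libraries for 12.5% of genes and all below for 9.35%. Differences were small for most genes. The median log2 difference was 0.01, the 5th and 95th percentiles were −0.37 and 0.40, and 27 genes were at least 2-fold higher and 33 at least 2-fold lower.

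These counts depended on single libraries. With all other libraries in the fit, 0 genes passed without KIKO oil 1, without KIKO oil 2 or without WT oil 2 (1097, 1001 and 1216 at an unadjusted p below 0.05). The number was 1 without KIKO oil 3, 4 without WT oil 1 and 8 without WT oil 3. In the fit without ERKO E2 3, leaving out KIKO oil 1, 2 or 3 as well gave 7, 9 and 45 genes, and leaving out WT oil 1, 2 or 3 gave 315, 65 and 660. A fit of only the 6 libraries compared gave 10 genes, 9 of them among the 268.

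Esr1, the gene altered in KIKO mice, checks the labels first. It stood at 2.91, 4.08 and 3.94 FPKM in KIKO oil, against 5.38, 6.92 and 11.9 FPKM in WT oil. All KIKO libraries lay below all WT libraries, by −0.91 ± 0.32 on the log2(FPKM + 1) scale (± SE of the fit), and the difference did not pass (adjusted p = 0.329). It passed without ERKO E2 3 in the fit (adjusted p = 0.0471). WT oil 3 held the highest value, and without it the difference was −0.62 (adjusted p = 0.497). A gene-level FPKM value cannot tell mutant Esr1 transcripts from normal ones. Over all genes tested 12.5% lay apart above and 9.35% below, shares to set beside this and each later list. Of 15 tested genes in a list of estrogen receptors, related receptors and coregulators, 1 lay apart above WT and 3 below, with a median of −0.00. Ncoa3, a coactivator of nuclear receptors, was the one above, at 9.73, 10.5 and 9.17 FPKM in KIKO oil and 7.81, 8.19 and 8.07 FPKM in WT oil.

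**Figure D1:**
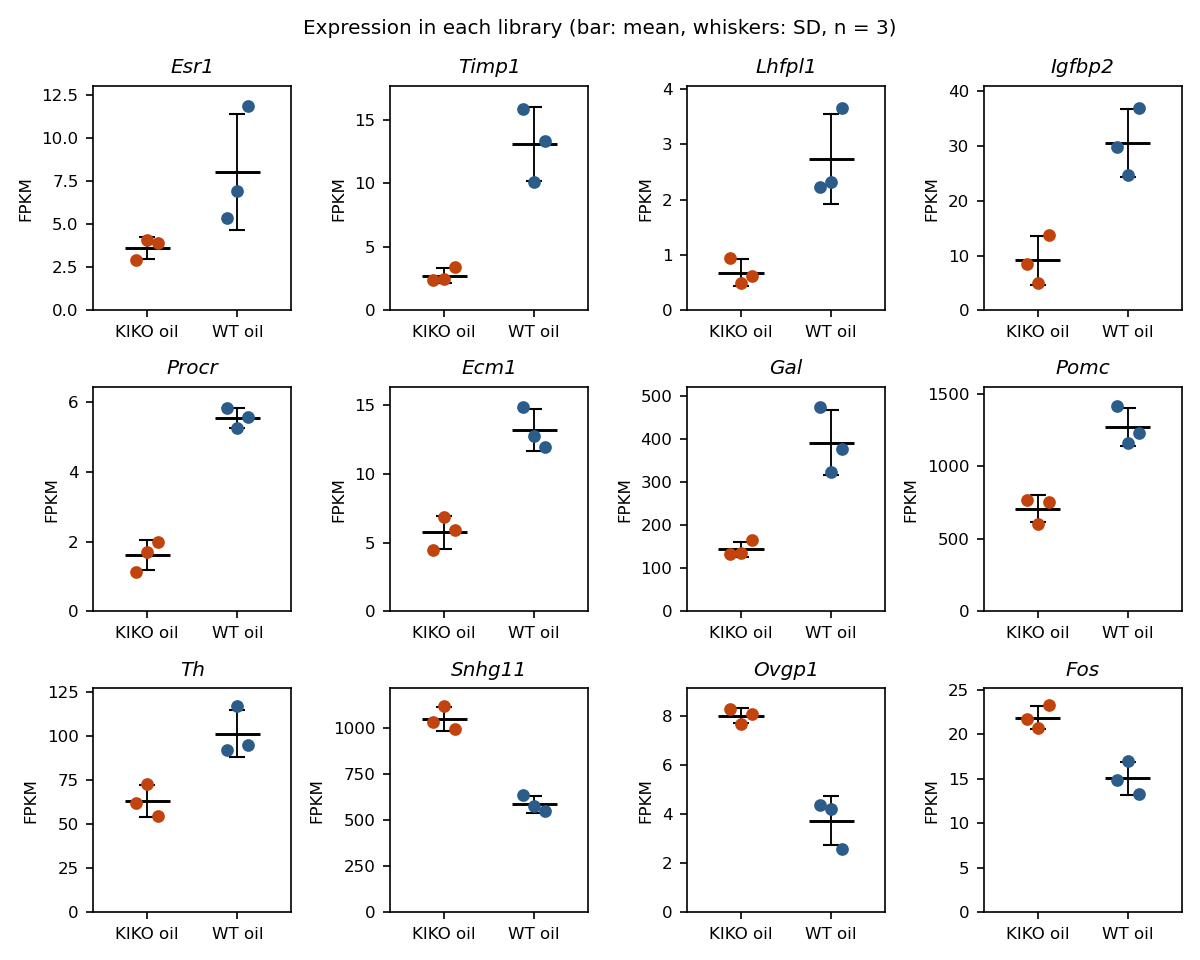
FPKM (vertical axes, linear from 0) of 12 genes in the 3 KIKO oil libraries on the left and the 3 WT oil libraries on the right of each panel, with the mean as a horizontal line and the SD as whiskers. The groups do not overlap in any panel, and KIKO oil is the lower group for the first 9 genes and the higher one for Snhg11, Ovgp1 and Fos.

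The 2 genes that fell come first. Timp1, on chromosome X, encodes an inhibitor of matrix metalloproteinases. It was at 2.40, 2.43 and 3.40 FPKM in KIKO oil, against 15.8, 10.1 and 13.3 FPKM in WT oil. The groups were far apart, and Timp1 fell by 1.90 ± 0.27 on the log2 scale (adjusted p = 0.0273). Lhfpl1, also on chromosome X, encodes a membrane protein of the LHFPL family. Its values were 0.946, 0.490 and 0.618 FPKM in KIKO oil and 2.22, 2.31 and 3.66 FPKM in WT oil, a fall of 1.14 ± 0.16 (adjusted p = 0.0273). These low values rested on 21, 20 and 18 fragments in KIKO oil, against 47, 60 and 91 in WT oil, as the confidence bounds imply. Timp1 passed in 13 of 22 alternative fits (adjusted p from 0.00329 to 0.274) and Lhfpl1 in 12 of 21 (0.00559 to 0.274). Timp1 lost its call without any 1 of the 6 libraries, with −2.06 to −1.76 and adjusted p from 0.0522 to 0.274. Lhfpl1 lost it without KIKO oil 1, 2 or 3 or WT oil 2, with −1.24 to −1.05 and adjusted p from 0.0608 to 0.274.

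Igfbp2, Procr and Ecm1 lay apart without passing. Igfbp2, which binds insulin-like growth factors, stood at 8.52, 5.04 and 13.8 FPKM in KIKO oil and 29.8, 24.8 and 37.0 FPKM in WT oil (log2 difference −1.72 ± 0.28, adjusted p = 0.0816). Procr, the endothelial protein C receptor, stood at 1.14, 1.72 and 1.99 FPKM in KIKO oil and 5.83, 5.26 and 5.58 FPKM in WT oil (−1.34 ± 0.24, 0.0890). Ecm1, an extracellular matrix protein, had 4.47, 6.87 and 5.91 FPKM in KIKO oil and 14.9, 12.7 and 11.9 FPKM in WT oil (−1.08 ± 0.20, 0.0962). In each of the 3 genes every KIKO library was below every WT library, as the naming rule asked. Without ERKO E2 3 in the fit the same differences passed, with adjusted p of 0.0140 for Igfbp2, 0.00217 for Procr and 0.00986 for Ecm1.

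Other genes from the 15 lower ones of smallest p lay apart in the same way, as the naming rule asked. S1pr3, a receptor for sphingosine 1-phosphate, held 5.83, 5.53 and 5.70 FPKM in KIKO oil, against 10.8, 10.5 and 10.8 FPKM in WT oil. Elk3, a transcription factor of the ETS family, held 4.25, 3.81 and 4.01 FPKM in KIKO oil against 6.26, 7.12 and 7.53 FPKM in WT oil, and Id1, an inhibitor of helix-loop-helix factors, 15.8, 14.1 and 13.2 FPKM in KIKO oil against 25.3, 22.9 and 24.9 FPKM in WT oil. Within each group the 3 libraries were close together, which a choice by small p favours. The log2 differences were −0.81 ± 0.16, −0.66 ± 0.12 and −0.72 ± 0.15, with adjusted p of 0.125, 0.0962 and 0.140. Pmepa1, a brake on TGF-beta signalling, had a difference of −0.77 ± 0.13 (0.0816), Gpr83, a G protein-coupled receptor, −0.74 ± 0.15 (0.127), Npr3, the clearance receptor of natriuretic peptides, −1.06 ± 0.21 (0.111), and the protease-like Prss35 −0.66 ± 0.14 (0.140). The same 7 differences passed without ERKO E2 3 in the fit, with adjusted p from 0.00986 for Pmepa1 to 0.0354 for Prss35. The authors' tables mark the Npr3 estimate in WT oil 1 and WT oil 2 as failed, so its difference is uncertain.

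Of 40 tested genes of collagens and matrix, 0 rose and 1, Timp1, fell. Their median difference was −0.12, with 2 lying apart above and 5 below, against 12.5% and 9.35% of all genes. Mmp14, a membrane-bound metalloproteinase, stood at 10.1, 10.6 and 9.91 FPKM in KIKO oil and 13.04, 15.2 and 13.8 FPKM in WT oil. Col11a1, a fibrillar collagen, lay on the other side, with 8.96, 8.48 and 9.25 FPKM in KIKO oil and 6.19, 4.22 and 4.90 FPKM in WT oil. Both lay apart without passing (−0.42 ± 0.10, adjusted p = 0.194, and 0.71 ± 0.26, 0.341). Among 14 genes of insulin-like growth factors and their binding proteins 0 rose and 0 fell, with a median of −0.12. Igfbp3, another binding protein, had 13.3, 9.82 and 7.48 FPKM in KIKO oil and 15.2, 26.7 and 25.2 FPKM in WT oil (−1.06 ± 0.36, 0.308). Of 15 meningeal and fibroblast markers 12 had a negative difference and 0 lay apart, with a median of −0.28, which was 0.10 without WT oil 3 and −0.75 without WT oil 1. Their sum was 224, 112 and 119.6 FPKM in KIKO oil and 68.2, 290.5 and 331 FPKM in WT oil. The groups overlapped, and the part of these cells in the differences of the matrix genes was not tested.

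The upstream sequences of 4 of these genes are shown because KIKO receptors are discussed in terms of DNA elements near the genes they act on. The 4 were picked by hand, without a rule, so their motifs do not stand for those of the other lower genes. Each is the 250 bases before the RefSeq start in GRCm38.p6, 5′ to 3′ in the direction of the gene, with AP-1 sites (TGANTCA) and GC boxes of the Sp1 type (GGGCGG, either strand) in capitals. They lie at chrX:20869916-20870165 on the plus strand for Timp1, chr2:155750967-155751216 on the plus strand for Procr, chr3:95739570-95739819 on the minus strand for Ecm1 and chr19:3414545-3414794 on the minus strand for Gal, a peptide gene described further on.
Timp1: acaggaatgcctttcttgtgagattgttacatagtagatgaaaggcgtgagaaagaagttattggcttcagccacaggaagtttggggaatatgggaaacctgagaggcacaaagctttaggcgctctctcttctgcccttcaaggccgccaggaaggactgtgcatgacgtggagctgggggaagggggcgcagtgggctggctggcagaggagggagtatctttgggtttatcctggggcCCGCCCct
Procr: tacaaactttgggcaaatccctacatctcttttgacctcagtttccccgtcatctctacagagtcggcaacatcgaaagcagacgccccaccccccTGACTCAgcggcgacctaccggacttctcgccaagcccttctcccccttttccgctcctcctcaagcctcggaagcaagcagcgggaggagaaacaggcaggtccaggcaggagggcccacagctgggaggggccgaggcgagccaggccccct
Ecm1: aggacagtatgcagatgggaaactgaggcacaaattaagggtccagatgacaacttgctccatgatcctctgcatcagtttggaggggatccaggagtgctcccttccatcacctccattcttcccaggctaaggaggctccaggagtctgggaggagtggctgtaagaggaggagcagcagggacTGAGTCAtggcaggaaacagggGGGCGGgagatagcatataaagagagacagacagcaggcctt
Gal: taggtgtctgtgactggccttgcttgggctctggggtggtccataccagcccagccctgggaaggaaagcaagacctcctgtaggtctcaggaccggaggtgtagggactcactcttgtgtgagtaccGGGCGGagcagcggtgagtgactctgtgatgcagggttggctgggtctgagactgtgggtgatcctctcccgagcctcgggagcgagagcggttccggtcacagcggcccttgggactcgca
Timp1 held a GC box 8 bases before the start and Gal one 122 bases before it. Procr held an AP-1 site at 154 bases, and Ecm1 an AP-1 site at 64 and a GC box at 42 bases. None of the 4 held the full estrogen response element (GGTCA, any 3 bases, TGACC), and Procr and Gal held its single arm GGTCA (either strand), at 218 and 26 bases. Over all 32851 promoter windows of the table, 6.75% held the AP-1 site, 32.7% a GC box, 0.0639% the full element and 35.2% the single arm. Of the 16 leading lower genes 12 were matched, in 13 windows, of which 3 held an AP-1 site, 9 a GC box, 5 a single arm and 0 the full one. Of the 15 leading higher genes 11 were matched, in 14 windows, with 2, 9, 5 and 0. A match is a description of the letters in this window and not a site of binding.

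Of the peptide genes of the arcuate nucleus, Gal had the smallest p and none passed. It encodes galanin, a neuropeptide of feeding and reproduction whose expression responds to estrogen. It stood at 133, 135 and 165 FPKM in KIKO oil, against 475, 324 and 379 FPKM in WT oil. The lowest WT library, at 324 FPKM, lay far above the highest KIKO library, at 165 FPKM, and the difference of −1.43 ± 0.28 had an adjusted p of 0.118. It passed in 7 of 22 alternative fits (0.00217 to 0.440), without ERKO E2 3 at 0.00217. Pomc, the precursor of melanocortin and opioid peptides, had 769.9, 601 and 752 FPKM in KIKO oil, against 1418, 1162 and 1232 FPKM in WT oil (−0.85 ± 0.25, adjusted p = 0.249, 0.0287 without ERKO E2 3). Again the groups did not overlap.

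The opposing feeding neurons differed less. Agrp, which encodes an antagonist of melanocortin receptors, had 164, 159 and 130.2 FPKM in KIKO oil and 174, 165 and 198 FPKM in WT oil, and Npy, which stimulates feeding, 868, 733 and 647 FPKM in KIKO oil and 957, 886 and 904 FPKM in WT oil. Both lay apart by narrow gaps (−0.25 ± 0.33 and −0.30 ± 0.28, adjusted p = 0.830 and 0.765). Cartpt, a satiety peptide found with POMC, had −0.42 ± 0.29 (0.678). Prdm12, a transcription factor of POMC neurons, had 2.31, 3.96 and 3.54 FPKM in KIKO oil and 5.66, 7.07 and 5.37 FPKM in WT oil (−0.73 ± 0.15, 0.125). Of the 17 genes of AgRP and POMC neurons, 0 passed, 8 lay apart below and 0 above, and the median was −0.30. That median was −0.11 without WT oil 3 and −0.31 without KIKO oil 1. With a trend by exon length removed, as described further on, it was −0.14. Their summed level was 2971, 2553 and 2795 FPKM in KIKO oil and 4129.6, 3832 and 3866 FPKM in WT oil.

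Kisspeptin neurons gave another picture. Kiss1 stood at 483, 378 and 651 FPKM in KIKO oil and 520.2, 359.5 and 419 FPKM in WT oil, with overlapping ranges (0.20 ± 0.32, adjusted p = 0.863). Tac2, which encodes neurokinin B, had −0.24 ± 0.24 (0.775) and Pdyn, the dynorphin precursor, −0.31 ± 0.24 (0.712), both overlapping as well. Tacr3, the neurokinin B receptor, had 9.67, 10.5 and 14.0 FPKM in KIKO oil and 12.8, 8.53 and 18.1 FPKM in WT oil (−0.15 ± 0.21, 0.838). Ghrh, which drives growth hormone release, had 127, 113 and 117 FPKM in KIKO oil and 131, 126 and 124 FPKM in WT oil (−0.09 ± 0.26, 0.932). In the list of 20 genes of these and other reproductive peptides, 0 passed and the median was −0.04. Of the 20, 3 lay apart above and 1 below, against 12.5% and 9.35% of all genes. Greb1 and Pgr, classical targets of estradiol, also overlapped between the groups. Greb1 was low, at 0.396, 0.245 and 0.288 FPKM in KIKO oil and 0.513, 0.237 and 0.676 FPKM in WT oil, and Pgr, the progesterone receptor, stood at 3.62, 4.23 and 3.81 FPKM in KIKO oil and 3.29, 4.59 and 5.44 FPKM in WT oil. Of 21 tested estrogen-responsive genes 0 passed, 5 lay apart below and 0 above, and the median was −0.19. Cckar, a receptor for cholecystokinin, was among the 5, with 2.36, 3.60 and 2.78 FPKM in KIKO oil and 5.19, 4.99 and 4.40 FPKM in WT oil (−0.59 ± 0.16, 0.205).

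Dopamine genes were mostly on the lower side. Th, tyrosine hydroxylase, makes the precursor of dopamine and had 61.8, 72.6 and 54.7 FPKM in KIKO oil, against 92.1, 117 and 95.1 FPKM in WT oil (−0.68 ± 0.20, adjusted p = 0.241). Gch1, which supplies its cofactor, had 5.85, 8.14 and 7.25 FPKM in KIKO oil and 9.15, 10.6 and 10.4 FPKM in WT oil (−0.46 ± 0.11, 0.192). Both were apart, and both passed without ERKO E2 3 in the fit (0.0356 and 0.0418). Of 23 genes of dopamine and prolactin signalling, 0 passed, 9 lay apart below and 1 above, with a median of −0.19. Prlr, the prolactin receptor, overlapped (−0.19 ± 0.18, 0.768). Sst, somatostatin, had 912, 840.4 and 956 FPKM in KIKO oil and 1549, 1217 and 1229 FPKM in WT oil (−0.55 ± 0.21, 0.357), and Vgf, a precursor of secretory peptides, 403, 431 and 517 FPKM in KIKO oil and 738, 649.7 and 605 FPKM in WT oil (−0.56 ± 0.17, 0.243). Over 18 arcuate identity genes the median was −0.27, with 8 apart below and 0 above. The lists share members, so their counts are not independent. Gal is in the estrogen-responsive, dopamine and arcuate identity lists. Th is shared by the dopamine and arcuate identity lists, and Pomc by the feeding neuron and arcuate identity lists. The 17 genes of prohormone processing and granins had a median of −0.04, with 2 apart above and 3 below. Its sign turned to 0.08 after quantile normalization.

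Oxt, oxytocin, whose neurons lie in neighbouring nuclei, had 1072, 1044 and 1425 FPKM in KIKO oil and 2684, 2714 and 1915 FPKM in WT oil (−1.04 ± 0.45, adjusted p = 0.441). Avp, vasopressin, overlapped, with 1561, 2063 and 2920.3 FPKM in KIKO oil and 4581, 4266 and 2532 FPKM in WT oil. Both mark neighbouring nuclei, whose summed markers differed between libraries as given above, and their part in the peptide differences was not tested. Oxt is also a member of the estrogen-responsive list above.

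Immediate early genes, which neurons switch on with activity, lay on both sides. Of 28 tested, 0 passed, 5 lay apart above and 5 below, and the median was −0.05. Fos had 21.7, 20.7 and 23.3 FPKM in KIKO oil and 14.9, 17.0 and 13.3 FPKM in WT oil (0.51 ± 0.17, adjusted p = 0.278), and Npas4, a factor specific to neuronal activity, 7.74, 6.58 and 7.75 FPKM in KIKO oil and 5.30, 4.62 and 4.14 FPKM in WT oil (0.56 ± 0.13, 0.189). Jun, the partner of Fos in AP-1, had 25.9, 26.1 and 25.6 FPKM in KIKO oil and 33.3, 37.8 and 33.9 FPKM in WT oil (−0.42 ± 0.11, 0.195). So Fos and Npas4 lay above in every KIKO library and Jun below. Without ERKO E2 3 in the fit these 3 passed (0.0336, 0.0391 and 0.0136). Of 12 genes of neurotrophins and AP-1 linked growth, 0 passed, 4 lay apart below and 1 above. Ngfr, a neurotrophin receptor, was below, at 1.59, 1.67 and 2.02 FPKM in KIKO oil and 2.52, 4.68 and 2.65 FPKM in WT oil (−0.60 ± 0.17, 0.214). Chaperones of the heat shock response gave 4 apart above and 4 below of 21. Cryab, a small heat shock protein, stood at 28.1, 24.3 and 38.6 FPKM in KIKO oil and 57.8, 51.0 and 57.1 FPKM in WT oil (−0.87 ± 0.31, 0.324).

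Among genes with higher values in KIKO oil, none passed in the fit of all libraries. Ovgp1, an oviductal glycoprotein of the chitinase-like family, had 8.28, 7.66 and 8.07 FPKM in KIKO oil, against 4.37, 4.22 and 2.58 FPKM in WT oil (0.95 ± 0.16, adjusted p = 0.0816, 0.0121 without ERKO E2 3). The other leading higher genes that the naming rule chose had differences from 0.39 ± 0.08 for Pcmtd2 to 0.74 ± 0.17 for Agxt2l1. They included Ctdspl, a phosphatase (0.43 ± 0.08), Ttc8, a protein of the primary cilium (0.50 ± 0.11), and the transcription factor Tfap4 (0.63 ± 0.13). Tmem181c-ps, at 18.3, 15.8 and 16.0 FPKM in KIKO oil and 10.8, 12.3 and 10.8 FPKM in WT oil, is a pseudogene, whose reads may be shared with its near-identical relatives. Each of these lay apart from WT oil, as the rule asked. Each also passed without ERKO E2 3 in the fit, on the same difference, which the choice by small p favours.

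Several long noncoding RNAs lay above WT oil in KIKO oil. They were singled out after their values were seen. Snhg11, a long noncoding RNA that hosts small nucleolar RNAs, stood at 1032, 1121 and 996 FPKM in KIKO oil, against 637, 577 and 549 FPKM in WT oil (0.84 ± 0.20, adjusted p = 0.191, 0.00986 without ERKO E2 3). Meg3, an imprinted noncoding RNA of chromosome 12, had 999, 995 and 892 FPKM in KIKO oil and 753, 643 and 645 FPKM in WT oil, and Rian, of the same locus, 243, 268 and 263 FPKM in KIKO oil and 197, 176 and 193 FPKM in WT oil. Ipw, of the imprinted Prader-Willi locus on chromosome 7, had 39.0, 41.9 and 45.2 FPKM in KIKO oil and 27.2, 21.2 and 19.5 FPKM in WT oil. All 4 lay apart. Malat1, a nuclear noncoding RNA of most cells, overlapped, with 95.3, 101 and 75.9 FPKM in KIKO oil and 98.2, 103 and 78.9 FPKM in WT oil. The log2 differences were 0.50 ± 0.27 for Meg3, 0.45 ± 0.14 for Rian, 0.88 ± 0.36 for Ipw and −0.04 ± 0.32 for Malat1, with adjusted p of 0.566, 0.259, 0.405 and 0.976.

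In several gene families most members, though not all, lay on 1 side, and none passed. Over all genes tested 51.2% of differences were above 0, 12.5% of genes lay apart above and 9.35% below. The zinc finger, splicing, histone and ribosomal families were defined by gene name after the values were seen. Of 317 zinc finger genes named Zfp, which encode DNA-binding proteins, 243 had a positive difference, 86 lay apart above and 8 below, and the median was 0.14. Their summed level was 2918 to 2962 FPKM in KIKO oil, against 2645 to 2722 FPKM in WT oil. Of 63 genes of the Srsf, Clk, Luc7l, Rbm and Prpf families, many of which act in splicing, 26 lay apart above and 1 below, with a median of 0.15. Clk1, a kinase of splicing factors also picked after its values were seen, had 110.0, 113 and 96.0 FPKM in KIKO oil and 79.0, 75.1 and 71.4 FPKM in WT oil. Circadian clock genes had 9 of 21 apart above and 0 below and a median of 0.19, led by Rorb (0.61 ± 0.21), Per3 (0.45 ± 0.16) and Cry2 (0.19 ± 0.07). No member of these 3 lists passed. Without ERKO E2 3 in the fit, 7 of the 317 zinc finger and 3 of the 63 splicing genes passed, all higher. None of the clock genes did. Over all genes tested, 1.21% passed as higher in that fit.

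The families on the other side were short genes. Of 53 tested histone genes named Hist, 20 lay apart below and 1 above, with a median of −0.35 and summed levels of 404, 324 and 358 FPKM in KIKO oil and 537, 599.6 and 459 FPKM in WT oil. Histone genes are near-identical copies of each other, so their single values are uncertain. Of 66 nuclear genes of the mitochondrial respiratory chain, 60 had a negative difference, 13 lay apart below and 0 above, with a median of −0.14. Of 74 cytosolic ribosomal protein genes, 59 were negative, 5 lay apart below and 0 above, with a median of −0.12. In both the summed levels overlapped, with WT oil 3 among the KIKO libraries.

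Differences varied with transcript length. Of the genes tested, 13317 (90.1%) had an exon length in the GENCODE vM21 annotation. Split into 4 equal classes by length, the median log2 difference was −0.09 in the shortest genes (174 to 2730 bases), −0.02 and 0.03 in the next classes and 0.09 in the longest (6797 to 123179 bases). WT oil 1 departed most from the mean of the 6 libraries, by 0.11 in the shortest and −0.16 in the longest class. WT oil 2 had 0.06 and −0.04, and WT oil 3, at −0.03 and 0.04, lay on the side of the KIKO libraries. The KIKO libraries had −0.02, −0.07 and −0.03 in the shortest class and 0.05, 0.08 and 0.02 in the longest. The median length was 539 bases for the histone genes, 1869.5 for the respiratory chain, 1781 for ribosomal proteins, 4706 for the zinc finger genes and 5667 for the splicing families, against 4392 for all genes.

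After a smooth trend with length was removed from each library, an alternative added after the data were seen, the medians were 0.13 for zinc finger genes, 0.12 for the splicing families and 0.14 for clock genes. They were −0.19 for histone genes, −0.07 for the respiratory chain and −0.03 for ribosomal proteins. The medians of the histone, respiratory chain and ribosomal genes were thus nearer 0 with the trend removed, while those of the zinc finger and splicing families were close to their values before. With the trend removed 14 genes passed, 5 higher and 9 lower in KIKO oil. The 9 included Gal (−1.29, adjusted p = 0.00604), Timp1 (−1.77, 0.00604), Procr (−1.26, 0.0161) and Ecm1 (−1.03, 0.0390), and the 5 included Ovgp1 (0.97, 0.0260) and Snhg11 (0.76, 0.0470). Lhfpl1 no longer passed (−1.06, 0.0735), and Igfbp2 still did not (0.0531).

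**Figure D2:**
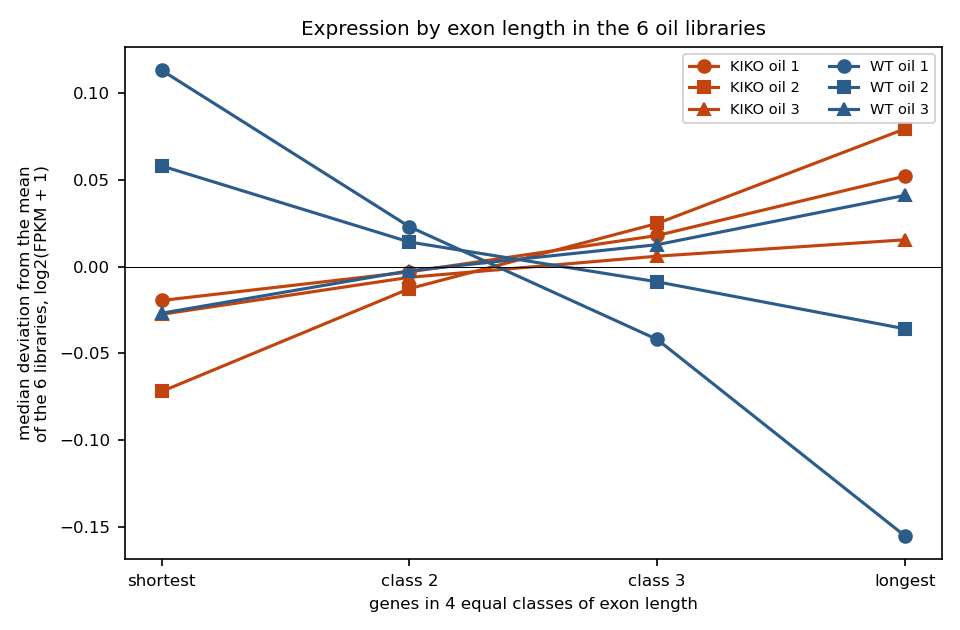
Median deviation of each library from the mean of the 6 oil libraries, on the log2(FPKM + 1) scale (vertical axis), in 4 equal classes of genes by exon length (horizontal axis), for KIKO oil (orange) and WT oil (blue). WT oil 1 lies at 0.11 in the shortest and −0.16 in the longest class, and WT oil 3 follows the KIKO libraries.

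Ion channel genes lay apart above WT oil no more often than all genes (12.5%). Of 48 tested, 35 had a positive difference, 6 lay apart above and 3 below, with a median of 0.11, and of 46 genes of GABA and glutamate signalling 10 above and 2 below, with a median of 0.08. Abcc8, a subunit of ATP-sensitive potassium channels, had 4.22, 5.00 and 5.15 FPKM in KIKO oil and 2.84, 3.37 and 3.27 FPKM in WT oil (0.48 ± 0.15, adjusted p = 0.272). Gabrb2, a GABA-A receptor subunit, had 14.9, 15.5 and 13.7 FPKM in KIKO oil and 11.5, 9.97 and 12.5 FPKM in WT oil (0.35 ± 0.12, 0.289). Kcnk3, a leak potassium channel, lay below, at 10.3, 10.6 and 11.4 FPKM in KIKO oil and 13.8, 13.9 and 17.6 FPKM in WT oil (−0.44 ± 0.15, 0.317). The channel and transmitter genes are long, with median exon lengths of 9458 and 6600 bases, and with the length trend removed their medians were 0.02 and 0.04. Receptors of energy balance had 1 apart above and 3 below of 24, with Htr2c, a serotonin receptor, at 0.43 ± 0.21 and Socs3, an inhibitor of leptin signalling, at −0.48 ± 0.19.

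Most marker lists of glial, vascular and meningeal cells had negative medians. Over all genes 12.5% lay apart above and 9.35% below. The 16 microglia markers had a median of −0.32, with 8 apart below and 0 above, and summed to 238, 209 and 216 FPKM in KIKO oil and 285, 303 and 270.4 FPKM in WT oil. Tmem119, a microglial surface protein, had 4.56, 4.43 and 4.17 FPKM in KIKO oil and 5.26, 8.71 and 8.06 FPKM in WT oil, and Cx3cr1, the fractalkine receptor, 2.78, 3.05 and 3.16 FPKM in KIKO oil and 4.64, 5.41 and 4.72 FPKM in WT oil. The 17 tanycyte markers had a median of −0.29, with 5 apart below and 0 above. They summed to 419.6 to 462 FPKM in KIKO oil and 506 to 597 FPKM in WT oil. Vim, the intermediate filament of tanycytes and astrocytes, had 79.0, 76.8 and 86.9 FPKM in KIKO oil and 116, 118 and 107 FPKM in WT oil (−0.49 ± 0.18, adjusted p = 0.345).

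Astrocyte markers had a median of −0.10, with 4 of 15 apart below and 0 above, among them Gfap, at 178, 182 and 201 FPKM in KIKO oil and 261, 359 and 277 FPKM in WT oil (−0.66 ± 0.20, 0.266). The oligodendrocyte list had 7 of 17 apart below and 0 above, with a median of −0.27, and that of their precursors 4 of 12 and 0, with −0.23. Cldn11, a myelin claudin, stood at 44.1, 44.8 and 44.2 FPKM in KIKO oil and 58.6, 62.7 and 57.5 FPKM in WT oil, and Olig1, a factor of the lineage, at 74.3, 72.7 and 72.7 FPKM in KIKO oil and 95.9, 105 and 85.2 FPKM in WT oil. The 14 neuron markers had a median of −0.01, with 3 apart above, such as the synaptic Snap25 (0.30 ± 0.10), and 3 below, such as the neurofilament Nefl (−0.44 ± 0.14). Its sign turned to 0.08 after quantile normalization. The median was −0.27 for endothelial markers (13 of 15 negative), −0.20 for pericytes and smooth muscle (11 of 12) and −0.44 for perivascular macrophages (5 of 5), with 2, 0 and 0 apart below. These 3 medians depended on single libraries. Without WT oil 1 they were −0.50, −0.41 and −0.74. Without WT oil 3 the endothelial and pericyte medians were −0.008 and −0.004, and without WT oil 2 the macrophage median was −0.04. No marker passed in the fit of all libraries, and differences between lists were not tested.

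The summed markers of astrocytes (1946 to 2062 FPKM in KIKO oil, 2161 to 2394 FPKM in WT oil), oligodendrocytes (1509 to 1625 in KIKO oil, 1687 to 2247 in WT oil) and their precursors (151 to 152 in KIKO oil, 182 to 204 in WT oil) did not overlap between the groups. Those of endothelium (134 to 220.5 in KIKO oil, 167 to 256 in WT oil), blood (391 to 566 in KIKO oil, 349 to 1322 in WT oil) and pars tuberalis and pituitary (64.9 to 260.2 in KIKO oil, 20.9 to 412 in WT oil) overlapped. These glial sums, like Timp1, Igfbp2 and the other lower genes, were lower in KIKO oil. Within WT oil, WT oil 2 held the highest sums of astrocytes, oligodendrocytes and precursors. The lower genes went different ways in that library. Timp1 and Igfbp2 had their lowest WT oil values there, and Th, Prdm12 and Ngfr their highest. The part of glial cells in the differences of the lower genes was not tested.

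**Figure D3:**
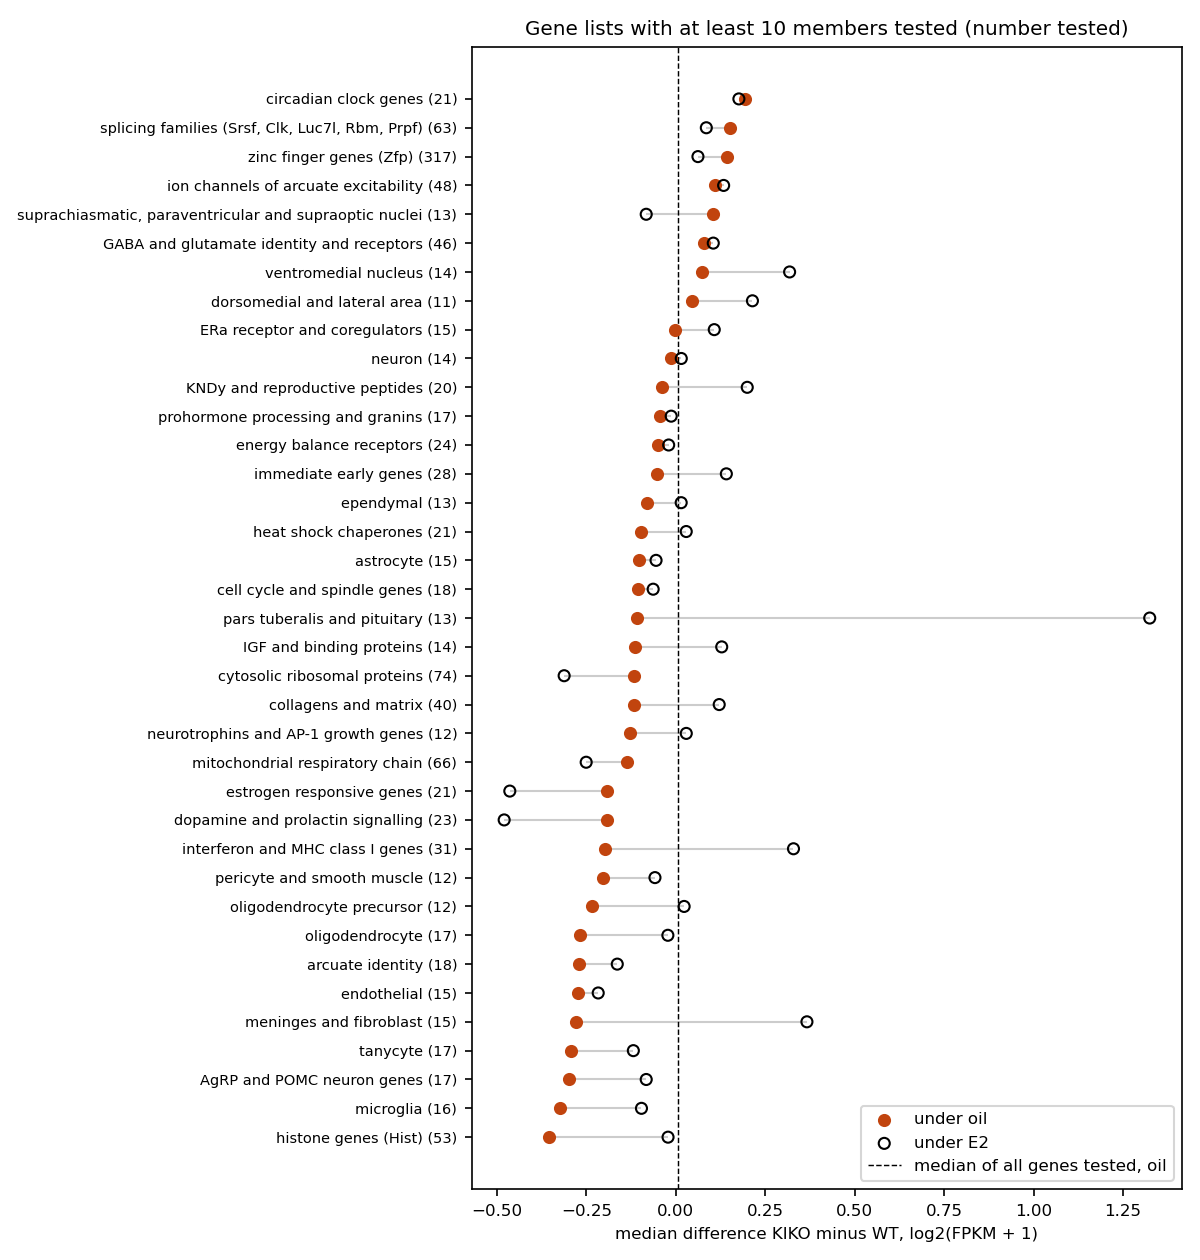
Median difference KIKO minus WT on the log2(FPKM + 1) scale (horizontal axis) for each list with at least 10 members tested (rows, number tested in parentheses), under oil (filled) and under E2 (open), with the median of all genes under oil as a dashed line. Under oil clock, splicing and zinc finger genes are at the top, between 0.14 and 0.19, and histone genes at the bottom, at −0.35.

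The same genotypes under estradiol gave a comparison with no library in common. Between KIKO E2 and WT E2 140 genes passed (0.948%), and the KIKO libraries all lay above WT for 11.4% of genes and all below for 10.5%. Of the 1850 genes apart above under oil, 572 (30.9%) were also apart above under E2, which is 34.0% of the 1682 there. Of the 1382 apart below, 301 (21.8%) were below under E2 as well, 19.3% of the 1556. Across the 14774 genes the differences under oil and E2 correlated with a Pearson r of 0.26 and a Spearman rho of 0.37. The 2 comparisons share gene lengths and the genotype, and in both the longest class lay highest (median 0.09 under oil, 0.09 under E2), so this is given as a description.

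Gal and Npr3 were lower in KIKO under E2 as well. Gal averaged 123 ± 22.8 FPKM in KIKO E2, against 319 ± 27.2 FPKM in WT E2 (SD, n = 3), and fell there by 1.38 ± 0.28 (adjusted p = 0.0288). Npr3 had 0.986 ± 0.0574 FPKM in KIKO E2 and 3.23 ± 0.868 FPKM in WT E2, a fall of 1.07 ± 0.21 (0.0174). Snhg11 lay above under E2 as well, at 1011 ± 191 FPKM in KIKO E2 and 646 ± 79.5 FPKM in WT E2 (0.64 ± 0.20, 0.217).

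Timp1, Lhfpl1, Igfbp2, Procr and Ecm1 had no such gap under E2. Timp1 averaged 2.74 ± 0.566 FPKM in KIKO oil and 13.1 ± 2.89 FPKM in WT oil, but 1.86 ± 1.12 FPKM in KIKO E2 and 2.23 ± 0.512 FPKM in WT E2. Igfbp2 averaged 9.11 ± 4.41 FPKM in KIKO oil and 30.5 ± 6.15 FPKM in WT oil, but 6.59 ± 0.344 FPKM in KIKO E2 and 5.19 ± 2.65 FPKM in WT E2. For Procr the means were 1.62 ± 0.432 FPKM in KIKO oil and 5.56 ± 0.282 FPKM in WT oil, and 1.53 ± 0.321 FPKM in KIKO E2 and 1.19 ± 0.340 FPKM in WT E2. So WT oil stood above the other 3 means in each of these genes, and the KIKO oil mean was nearer the WT E2 mean than the WT oil mean. The genes were chosen for a small p with KIKO oil below WT oil. A high WT oil mean and a smaller gap under E2 therefore follow in part from the choice. The genotype differences under E2 were −0.24 ± 0.27 for Timp1, −0.02 ± 0.16 for Lhfpl1, 0.37 ± 0.28 for Igfbp2, 0.21 ± 0.24 for Procr and −0.00 ± 0.20 for Ecm1, with overlapping groups.

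The difference between the E2 and oil comparisons was tested as an interaction, which 20 of all genes passed (0.135%). The interaction contains the oil difference by which these 5 genes were chosen, so its p-values for them depend on that choice. For these 5 genes it did not pass, with 1.66 and adjusted p of 0.162 for Timp1, 1.12 and 0.0846 for Lhfpl1, 2.09 and 0.0577 for Igfbp2, 1.55 and 0.109 for Procr, and 1.08 and 0.264 for Ecm1. Without ERKO E2 3 in the fit their adjusted p ran from 0.00274 for Procr to 0.0794 for Ecm1, with Procr and Igfbp2 (0.0458) passing.

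**Figure D4:**
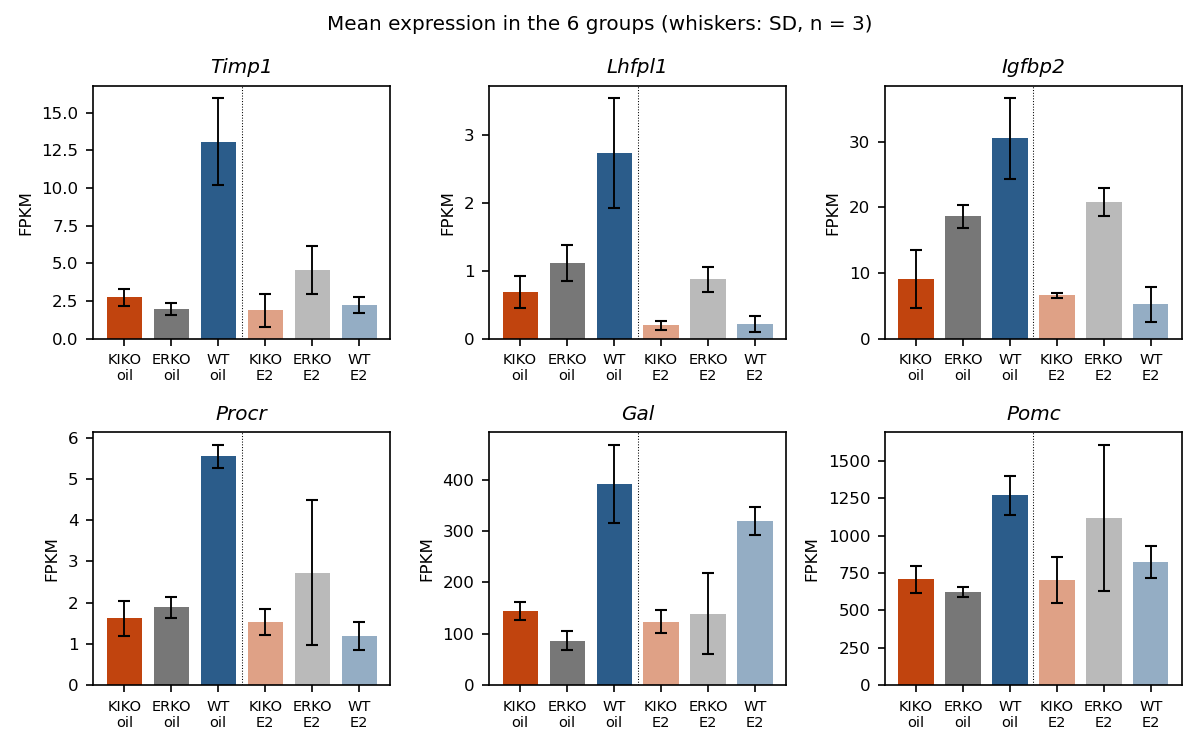
Mean FPKM (vertical axes, from 0) of 6 genes in KIKO, ERKO and WT libraries under oil and, right of the dotted line, under E2, with the SD of 3 libraries as whiskers. WT oil is the tallest bar in all 6 panels, and only for Gal does WT E2 stay well above KIKO E2 (319 against 123 FPKM). Timp1, Lhfpl1, Igfbp2 and Procr were chosen for low values in KIKO oil against WT oil, so their tall WT oil bars partly follow from the choice.

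**Figure D5:**
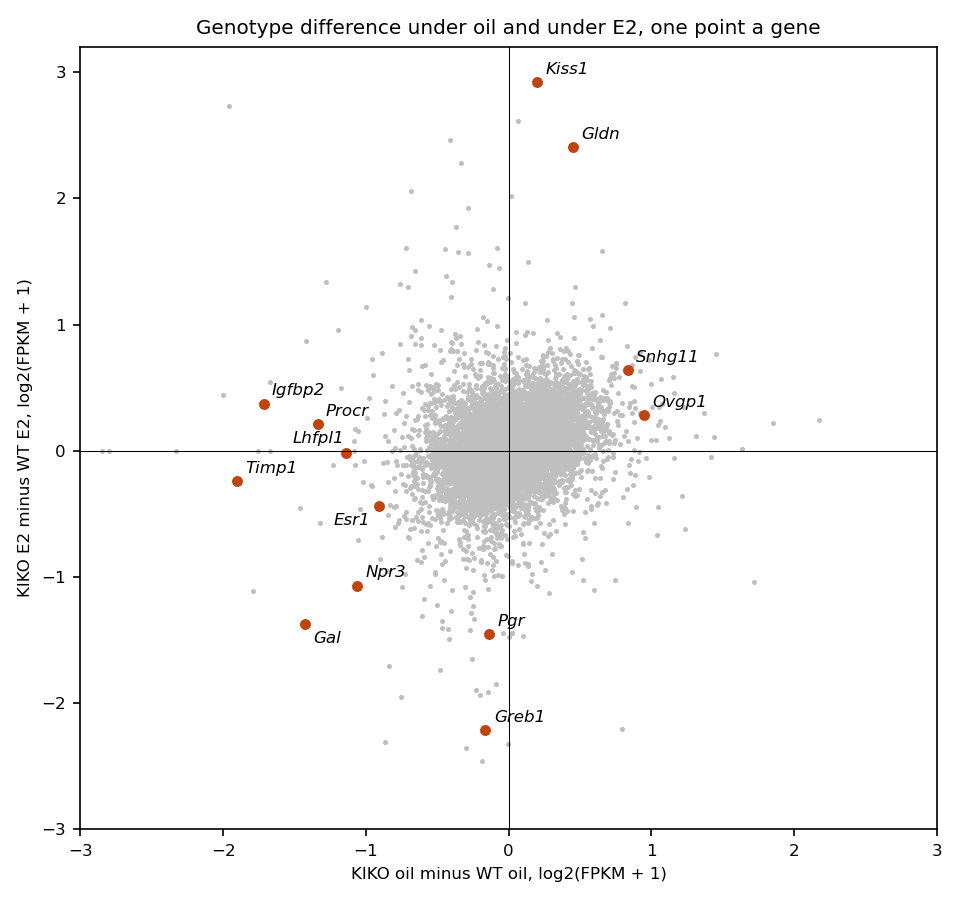
Genotype difference of each of 14774 genes on the log2(FPKM + 1) scale, KIKO oil minus WT oil on the horizontal axis and KIKO E2 minus WT E2 on the vertical axis, with 4 genes outside the axes. Gal and Npr3 are low on both, Timp1, Igfbp2, Procr and Lhfpl1 on the horizontal axis, and Kiss1, Gldn and Greb1 stand away from 0 on the vertical axis.

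ERKO oil libraries were set against the same WT oil libraries, so the 2 comparisons are not independent. Most genes given here were chosen for their difference between KIKO oil and WT oil. Their ERKO differences and p-values use the same WT oil values and so follow in part from that choice. In that comparison 212 genes passed (1.43%). The count was 3319 without ERKO E2 3, 64 with the replicate block, and 12 without WT oil 2, 42 without WT oil 1, 287 without WT oil 3 and 66 to 89 without 1 KIKO oil library. Timp1 averaged 1.95 ± 0.392 FPKM in ERKO oil (−2.24 ± 0.27 against WT oil, adjusted p = 0.00699), Procr 1.89 ± 0.250 FPKM (−1.19 ± 0.24, 0.0326) and Gal 86.6 ± 18.9 FPKM (−2.17 ± 0.28, 0.00818). Lhfpl1 averaged 1.11 ± 0.265 FPKM (−0.81 ± 0.16, 0.0326) and Ecm1 5.83 ± 0.602 FPKM (−1.05 ± 0.20, 0.0274) in ERKO oil. Igfbp2 averaged 18.6 ± 1.76 FPKM in ERKO oil, between its KIKO oil and WT oil means, and did not pass there (−0.67 ± 0.28, 0.189). Snhg11 (0.95 ± 0.20, 0.0346) and Ovgp1 (1.01 ± 0.16, 0.0186) rose in ERKO oil. Pomc had a difference of −1.02 ± 0.25 there (0.0541), and Th fell by 0.92 ± 0.20 (0.0367).

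Genes near Esr1 on chromosome 10 can travel with a targeted allele. Of 72 other tested genes within 20 Mb of Esr1 in the RefSeq annotation, 0 passed with all libraries in the fit. Without ERKO E2 3 in the fit 1 passed, against 1.81% of all genes. It was Syne1, a nuclear envelope protein named here for that reason (0.42, adjusted p = 0.333 and 0.0342). Of the 72, 12 lay apart above and 3 below, against 12.5% and 9.35% of all genes, and their median was 0.07. Ipcef1, the nearest by p, had 0.645, 1.18 and 1.09 FPKM in KIKO oil and 1.89, 1.58 and 1.92 FPKM in WT oil (−0.51 ± 0.16, 0.275).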

How the data were processed

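RNA-seq had been run on arcuate nuclei of 18 libraries in 6 groups of 3, with groups taken from the labels. For each library the authors supplied FPKM values per gene, their confidence bounds and a status, and per the submitters' processing notes TopHat2 2.0, Cuffdiff and the build mm10 were used. The annotation is not given in the sources used here. Gene starts in the files lay within 1000 bases of the GRCm38 RefSeq start for 987 of 20428 symbols (4.83%), so chromosomes are given without positions. The 23699 rows were summed by symbol to 23235. Genes averaging 0.5 FPKM or more over the 18 libraries were kept, 14831, and 57 small RNA genes were removed. Depth is not given in the sources used here, so relative depth was derived from the confidence bounds.

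The test was limma 3.58.1 (R 4.3.3) on log2(FPKM + 1), which understates changes of low genes, with 1 mean per group, 12 residual degrees of freedom, a variance trend and robust moderation. P-values were adjusted by Benjamini-Hochberg over all genes tested at 0.05. With 3 libraries a group, an exact permutation test cannot go below 0.1. "Apart" or "lay above" means that all 3 KIKO libraries were above all 3 WT libraries, and the reverse for below. On simulated data the fit recovered 76% of 100 genes changed by 1 on the log2 scale and 99% of 100 changed by 2, and called 8 unchanged genes. The simulated libraries had independent noise, with no outlying library and no length trend, and the changed genes averaged above 1 on the log2 scale. Recovery in the real libraries may therefore differ. The genes named were Esr1, those that passed, the 15 of smallest p in each direction that lay apart with a mean of at least 1 FPKM (clone names left out), a panel of arcuate genes, up to 3 of smallest p per pathway list, 4 per marker list and 4 near Esr1, and the text gives a selection of these. The comparison, the genes and the lists were chosen with earlier results of these data known. Library weights, other pseudocounts, filters, scalings, sample subsets and single libraries left out were tried as alternatives. Sequences are from RefSeq, GRCm38.p6. Python 3.11.15, numpy 2.4.6, pandas 2.3.3 and matplotlib 3.10.9 were used.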

Additional observations from a re-analysis of the deposited data

Results flagged for a closer look

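In 4 genes named above or by the naming rule, the difference of KIKO against WT differed between E2 and oil (limma interaction, E2 minus oil). Kiss1 had an interaction of 2.72 ± 0.45 (adjusted p = 0.0190), with 2.92 ± 0.32 under E2 and 0.20 ± 0.32 under oil. Greb1 had −2.05 ± 0.19 (8.71e-05), with −2.21 ± 0.13 under E2 and −0.16 ± 0.13 under oil. Gldn, which encodes gliomedin, had 1.95 ± 0.31 (0.0146), with 2.40 ± 0.22 under E2 and 0.45 ± 0.22 under oil. Syt12, a synaptotagmin, had 0.97 ± 0.15 (0.0140), and it alone of the 4 turned direction. Its libraries held 5.16, 5.07 and 5.25 FPKM in KIKO oil and 7.88, 6.95 and 8.26 FPKM in WT oil, all lower. KIKO E2 averaged 6.92 ± 0.748 FPKM and WT E2 4.68 ± 0.454 FPKM, all higher. The naming rule took Syt12 for its difference under oil, which the interaction contains. Its interaction p-value and its turn of direction therefore depend in part on that choice.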

How the results depend on the processing

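The count of genes that differed between KIKO oil and WT oil, 2 of 14774, depended on the processing. It was 0 with a pseudocount of 0.1 or 0.5 or a mean of at least 1 FPKM (1488, 1483 and 1370 at an unadjusted p below 0.05), 4 with median scaling, and 7 with quantile normalization or no filter. It was 14 with the exon length trend removed, 10 with only the 6 libraries compared, 48 with the 12 WT and KIKO libraries, 192 with the 9 oil libraries, 268 without ERKO E2 3 and 351 with library weights. Leaving out 1 of the 6 libraries gave 0 to 8, and in the fit without ERKO E2 3 it gave 7 to 660 (45 without KIKO oil 3 and 65 without WT oil 2). Between KIKO E2 and WT E2 the count of 140 became 304 with 12 libraries, 596 without ERKO E2 3 and 1030 with library weights. The count of interactions, 20, became 42 without ERKO E2 3, 59 with library weights, 31 without a filter and 9 with a pseudocount of 0.1, and 7 to 25 with 1 library left out. The count between ERKO oil and WT oil, 212, became 392 with the length trend removed, 430 with quantile normalization, 2932 with library weights and 3106 with the 9 oil libraries. Esr1 passed without ERKO E2 3 (−0.91, adjusted p = 0.0471) and with library weights (−0.92, 0.0401), and not in the others (adjusted p up to 0.669). The cause of these shifts was not tested.

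Same-numbered KIKO and WT libraries did not deviate together (r of −0.188, 0.0929 and −0.230), and the main fit did not pair them. Deviations from a mean of 3 libraries are tied to each other, so these values cannot show whether the numbers mark a shared batch. With the replicate number as a block the count was 1 under oil, 174 in the fit without ERKO E2 3, 111 under E2 and 19 for the interaction.

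Over 1756 values of single genes under alternatives, 1573 kept direction and side of the threshold, 158 passed only under the alternative, 18 no longer passed and 7 changed direction. The 7 were in Kiss1, at −0.0033 without KIKO oil 3 and up to 0.388 with another library left out, in Tacr3, at −0.406 to 0.0956 with 1 library left out, in Ghrh, at 0.0542 with the length trend removed, and in Malat1, at 0.0376 with quantile normalization and −0.155 to 0.0832 with 1 library left out. Of 924 list medians, 50 moved by more than the spread between libraries. FPKM without counts and 3 libraries a group limit the precision, above all for low genes such as Lhfpl1.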

Other observations

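Sprr1a, Tnfrsf12a and Lgals3 were picked after their values were seen. Sprr1a, a small proline-rich protein induced in injured neurons, stood at 0.729, 0.462 and 0.0926 FPKM in KIKO oil and 6.50, 9.77 and 1.18 FPKM in WT oil (adjusted p = 0.205, 0.0382 without ERKO E2 3), with WT oil 3 much the nearest to the KIKO libraries. Tnfrsf12a, a receptor of tissue repair, had 8.56, 8.93 and 7.83 FPKM in KIKO oil and 13.5, 15.3 and 12.5 FPKM in WT oil (−0.64 ± 0.19, 0.259), and Lgals3, a galectin of activated macrophages and microglia, 3.07, 3.67 and 2.78 FPKM in KIKO oil and 6.20, 5.83 and 4.05 FPKM in WT oil (−0.60 ± 0.23, 0.378). All 3 lay apart below WT oil without passing. Cell cycle and spindle genes gave 1 apart above and 4 below of 18. Ccnd1, cyclin D1, was below, at 12.5, 10.3 and 12.1 FPKM in KIKO oil and 17.1, 15.3 and 17.7 FPKM in WT oil (−0.49 ± 0.12, 0.194). Interferon and MHC class I genes had 25 of 31 negative differences, but 1 apart above and 3 below, and a median of −0.20, against 0.33 under E2.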
